A study of Mus musculus with 25 samples.

Results

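The genes described here are 7 tetraspanins, Cd9, Cd81, Cd151, Cd82, Cd63, Cd37 and Cd53, chosen by name and followed in myeloid cells of the injured mouse spinal cord. They are 7 of the 22439 gene symbols with a row in the deposited count matrices, and all 7 had counts high enough to enter every test. Tetraspanins are small multi-pass membrane proteins that gather integrins, immunoglobulin-family proteins, antigen-presenting molecules and proteases into membrane microdomains and that steer vesicle traffic, adhesion and cell fusion. Cd9, Cd81, Cd151 and Cd82 are widely expressed and sit largely at the cell surface, Cd63 cycles through late endosomes and lysosomes and marks exosomes and granules, and Cd37 and Cd53 are restricted to leukocytes. In the brain and spinal cord Cd81 and Cd9 are transcribed by resident microglia, and Cd9 and Cd63 are among the genes known to be higher in microglia of diseased tissue.

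The study profiled single myeloid cells after spinal cord injury by droplet 3′ RNA sequencing, in which each captured RNA molecule carries a unique molecular identifier (UMI). Tissue of 5 mm around the lesion was taken from 1 to 3 pooled mice per library, and 25 libraries held 30958 cells. Ctrl is a laminectomy without injury, and D1, D2, D3, D10 and D21 are days after injury. Cells were enriched for myeloid cells by fluorescence sorting before capture. The 12 libraries called mixed here took all YFP-positive cells of the Cx3cr1CreERT2 strain. In the Cx3cr1CreERT2:R26tdTomato strain, 5 resident libraries took cells positive for RFP and YFP, and 7 infiltrating libraries took RFP-negative, YFP-positive cells. YFP and CreERT2 are driven by Cx3cr1, a gene of microglia and monocytes, so a cell without that reporter was not collected, and the strain differs between the mixed libraries and the others. Ctrl was sorted as mixed (1 library) and resident (1), D1 as mixed (3) and infiltrating (2), D2 as mixed (2), resident (1) and infiltrating (1), D3 as mixed (3), resident (2) and infiltrating (1), D10 as mixed (2), resident (1) and infiltrating (2), and D21 as mixed (1) and infiltrating (1). One further D3 library has a title that says infiltrating and a sort label that says RFP-positive; it was kept out of the reported tests between time points and sorts, and enters the levels by cell type and cluster and the comparisons of types within a library. Libraries are named by time, sort and number. Ages and the timing of Cre induction are not given in the sources used here, and mice came as males or females, which entered each fit as a term.

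The deposited cell table codes 4 cell types and 16 clusters by number without names. Code 1, with 13289 cells, was microglia-like: 9 of 9 microglia markers reached 20 CPM (a gene's UMIs scaled to a common total of UMIs in every sum) and at least 2 times their level in the other types. Code 2 (12841 cells, monocytes included) was macrophage-like with 8 of 9 macrophage and 5 of 8 monocyte markers, code 3 (2712 cells) dendritic-like with 6 of 8, and code 4 (2116 cells) neutrophil-like with 7 of 7. They are written microglia, macrophages, dendritic-like and neutrophil-like cells below. Libraries held 486649 to 33204422 UMIs, and median UMIs per cell were 3062 in microglia, 9144 in macrophages, 11360 in dendritic-like and 2154 in neutrophil-like cells. D3_mixed 3 stood apart from the other mixed D3 libraries, with 14.4% microglia against 99.6% and 99.4%, and D2_mixed 2 had 3.05% microglia against 87.3% in D2_mixed 1. The D3 library of conflicting labels had 0.21% microglia among 3800 cells. One D2 infiltrating library is labelled female but carries the sex code of the male libraries in the cell table. Across all libraries 127 cell barcodes occurred in more than 1 library, at most 4 in any pair. A level below is a CPM of raw UMIs summed over the cells of 1 type in 1 library with at least 20 such cells. These are 3′ counts, so levels were compared for 1 gene between samples and not between genes.

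All 7 genes are protein-coding in the annotation of GRCm38: Cd82 at chr2:93419111-93463140, Cd53 at chr3:106759921-106790149, Cd9 at chr6:125460266-125494791 and Cd37 at chr7:45233632-45239115 on the minus strand, and Cd151 at chr7:141467392-141471473, Cd81 at chr7:143052739-143067934 and Cd63 at chr10:128900989-128912822 on the plus strand. Tead2 overlaps Cd37 on the other strand and has a row of its own; whether counting used strand is not given in the sources used here, so reads from the shared stretch cannot be told apart. Cd9 and Cd63 each have a processed pseudogene in the annotation, Cd9-ps and Cd63-ps, without a row in the matrices, so their reads could be split or lost and both levels carry that uncertainty. RefSeq promoter windows (GRCm38.p6, 250 bases before to 50 after a transcript start, 300 in all) were found for all 7 genes, 11 windows in total. Windows are shown for Cd37 and Cd82, which fell in microglia at D1 and D2, and for Cd53, the other leukocyte tetraspanin. Those of Cd63 and Cd9, which rose, are also shown. Cd81 also fell at D1 and D2, and its window is not printed. Of the Cd82 windows only the 1 with a marked match is printed. All are printed 5′ to 3′ on the strand of the gene. Capitals mark the PU.1 core GAGGAAGT or its reverse complement ACTTCCTC, the E-box CACGTG and the GC box GGGGCGGGG.
Cd37, chr7:45238790-45239089, minus strand: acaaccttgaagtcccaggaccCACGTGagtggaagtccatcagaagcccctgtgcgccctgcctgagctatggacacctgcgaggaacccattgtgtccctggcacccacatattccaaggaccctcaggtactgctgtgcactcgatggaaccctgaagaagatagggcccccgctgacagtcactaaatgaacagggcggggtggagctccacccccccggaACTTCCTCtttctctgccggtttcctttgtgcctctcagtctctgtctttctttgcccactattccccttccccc
Cd82, chr2:93461802-93462101, minus strand, 1 of 4 windows: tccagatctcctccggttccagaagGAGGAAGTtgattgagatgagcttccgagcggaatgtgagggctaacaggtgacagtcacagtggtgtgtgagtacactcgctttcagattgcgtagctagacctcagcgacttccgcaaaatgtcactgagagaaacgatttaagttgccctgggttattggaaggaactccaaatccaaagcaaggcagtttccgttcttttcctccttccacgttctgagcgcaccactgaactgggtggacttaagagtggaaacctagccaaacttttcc
Cd53, chr3:106790100-106790399, minus strand: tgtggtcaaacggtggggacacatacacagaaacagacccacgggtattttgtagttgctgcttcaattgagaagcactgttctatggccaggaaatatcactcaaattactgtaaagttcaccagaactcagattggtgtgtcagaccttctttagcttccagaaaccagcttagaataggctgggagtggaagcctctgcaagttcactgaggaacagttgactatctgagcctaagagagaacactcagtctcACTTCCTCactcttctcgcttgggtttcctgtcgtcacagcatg
Cd63, chr10:128909095-128909394, plus strand: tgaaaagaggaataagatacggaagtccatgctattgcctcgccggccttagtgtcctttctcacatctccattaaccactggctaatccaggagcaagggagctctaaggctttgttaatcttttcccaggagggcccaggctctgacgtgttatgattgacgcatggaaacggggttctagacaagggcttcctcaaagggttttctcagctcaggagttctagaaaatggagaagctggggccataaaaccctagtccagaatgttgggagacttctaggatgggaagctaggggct
Cd9, chr6:125494711-125495010, minus strand: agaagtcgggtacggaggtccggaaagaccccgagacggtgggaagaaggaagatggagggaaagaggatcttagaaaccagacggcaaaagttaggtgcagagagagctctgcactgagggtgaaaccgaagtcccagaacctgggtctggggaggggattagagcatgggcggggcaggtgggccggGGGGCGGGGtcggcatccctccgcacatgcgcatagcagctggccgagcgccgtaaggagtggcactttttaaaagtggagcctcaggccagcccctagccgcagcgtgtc
PU.1 is an ETS-family factor of myeloid cells. Its core GAGGAAGT, searched on both strands, was held by 3.2% of 32851 promoter windows of the same length, and among the tetraspanins by Cd37 (first base at -25 from the start), Cd53 (+7) and 1 window of Cd82 (-225). The GC box GGGGCGGGG was held by 11.45% of all windows and by Cd9 (-61) and a window of Cd151 (-9), and the E-box CACGTG by 7.15% and by Cd37 (-228). None of these letters occurred in the windows of Cd63 or Cd81. The AP-1 site TGACTCA (5.2% of all windows) and the ETS and IRF composite element (2.72%) occurred in no window of the 7 genes. The E-box is its own reverse complement, and no matches of different motifs overlapped. A match describes these letters only.

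Cd81 set microglia apart from the other 3 types. Cd81 and Cd151 had their highest mean in microglia and the other 5 genes in neutrophil-like cells, and dendritic-like cells had the lowest mean of each gene except Cd82, whose lowest was in macrophages. The types were made from the same cells and genes, so these levels are a description without a test. Cd81, which organises receptors and integrins at the cell surface, stood at 1192 (lowest), 2547 (median) and 6559 CPM (highest) in the 19 microglia sums. In the 20 macrophage sums Cd81 stood at 7.05, 79.6 and 887 CPM, and no macrophage sum reached the lowest microglia sum. In the 14 libraries holding both types Cd81 was lower in macrophages in 14 of 14, by a mean log2 difference of -4.41 ± 1.54 (SD). In 10 dendritic-like sums the Cd81 median was 15.0 and the highest 239 CPM, and in 5 neutrophil-like sums Cd81 ran from 28.1 to 135 CPM.

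Microglia markers were also counted in the macrophage sums. In those 14 libraries the macrophages' Cd81 was 0.56 to 34.8% of the microglia level (median 3.96%), while the 9 microglia markers summed there to 6.34 to 44.8% of theirs (median 10.4%). None of the 9 markers was at 0 over all macrophages. Cd81 did not keep one ratio to them: D2_resident 1 and D2_mixed 1 had marker sums of 839 and 803 CPM with Cd81 at 176 and 14.3 CPM. Cd81 was 1.6 to 21.0% of the marker sum in macrophages against 15.4 to 28.3% in microglia. The part of free RNA in the Cd81 of macrophages was not tested.

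Cd9, which acts at the cell surface in adhesion and fusion, had levels of 1068 (lowest), 1950 (median) and 4145 CPM (highest) in microglia and 311, 966 and 2200 CPM in macrophages. Macrophages had less Cd9 than microglia of the same library in 12 of 14 (mean log2 difference -1.11 ± 1.04). The gap was -0.71 over the 8 libraries of D1 to D3, with 6 of 8 lower, and -1.65 over the 6 of D10 and D21, with 6 of 6 lower. Dendritic-like cells had 179 to 776 CPM of Cd9 and were below macrophages in 10 of 10 libraries (-1.34 ± 0.57). Neutrophil-like cells had 1366 to 4587 CPM of Cd9, overlapping the microglia.

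Cd151, which holds laminin-binding integrins, ranged from 11.9 to 105 CPM in microglia and from 18.6 to 48.7 CPM in macrophages, and was lower in macrophages in 11 of 14 libraries (-0.45 ± 0.59). The lowest microglia value came from 1 UMI in the 36 microglia of D10_infiltrating 2. Cd151 was lower again in dendritic-like cells, at 9.99 to 22.4 CPM, in 10 of 10 libraries against macrophages (-0.61 ± 0.24). Cd82, an integrin-binding tetraspanin also known as a metastasis suppressor, reached 130 to 149 CPM in the 5 neutrophil-like sums, above each of the 19 microglia, 20 macrophage and 10 dendritic-like sums, the highest of which was 94.3 CPM in Ctrl microglia. Neutrophil-like cells had more Cd82 than macrophages of the same library in 5 of 5 (+3.06 ± 0.24). Dendritic-like cells also had more Cd82 than macrophages, in 10 of 10 (+0.82 ± 0.45).

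Cd63 spanned 472 to 2780 CPM in microglia, 418 to 2751 CPM in macrophages and 1749 to 6816 CPM in neutrophil-like cells. Dendritic-like cells had the lowest Cd63 of the types, with a median of 125 and a highest value of 260 CPM. They were below macrophages in 10 of 10 libraries (-3.62 ± 1.52), while neutrophil-like cells were above macrophages in 5 of 5 (+1.92 ± 0.62). Some clusters outside the dendritic-like cells were as low, as given below. Cd37 had medians of 300 CPM in microglia, 127 in macrophages, 89.8 in dendritic-like and 371 in neutrophil-like cells. Neutrophil-like cells were above macrophages in 5 of 5 libraries for Cd37 (+1.89 ± 0.60), and macrophages were below microglia in 11 of 14 (-0.82 ± 0.80). Cd53 had the smallest mean log2 difference between macrophages and microglia over the 14 libraries, -0.16 ± 0.60, with macrophages higher in 7 and lower in 7. The direction differed by time. Macrophages were higher in 6 of 8 libraries of D1 to D3 (mean +0.19) and lower in 5 of 6 of D10 and D21 (mean -0.63). Neutrophil-like cells had 514 to 1048 CPM of Cd53 and the other types 154 to 890 CPM, so the ranges overlapped. For 7 of 7 genes the mean over libraries was higher in microglia than in macrophages. Without the D3 library of conflicting labels the dendritic-like cells stayed below macrophages in 9 of 9 libraries for Cd9, Cd63 and Cd151 and above them in 9 of 9 for Cd82 (+0.77 ± 0.46), and the neutrophil-like cells stayed above macrophages in 4 of 4 for Cd82 (+3.04 ± 0.27), Cd63 (+1.85 ± 0.70) and Cd37 (+1.85 ± 0.69).

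**Figure D1:**
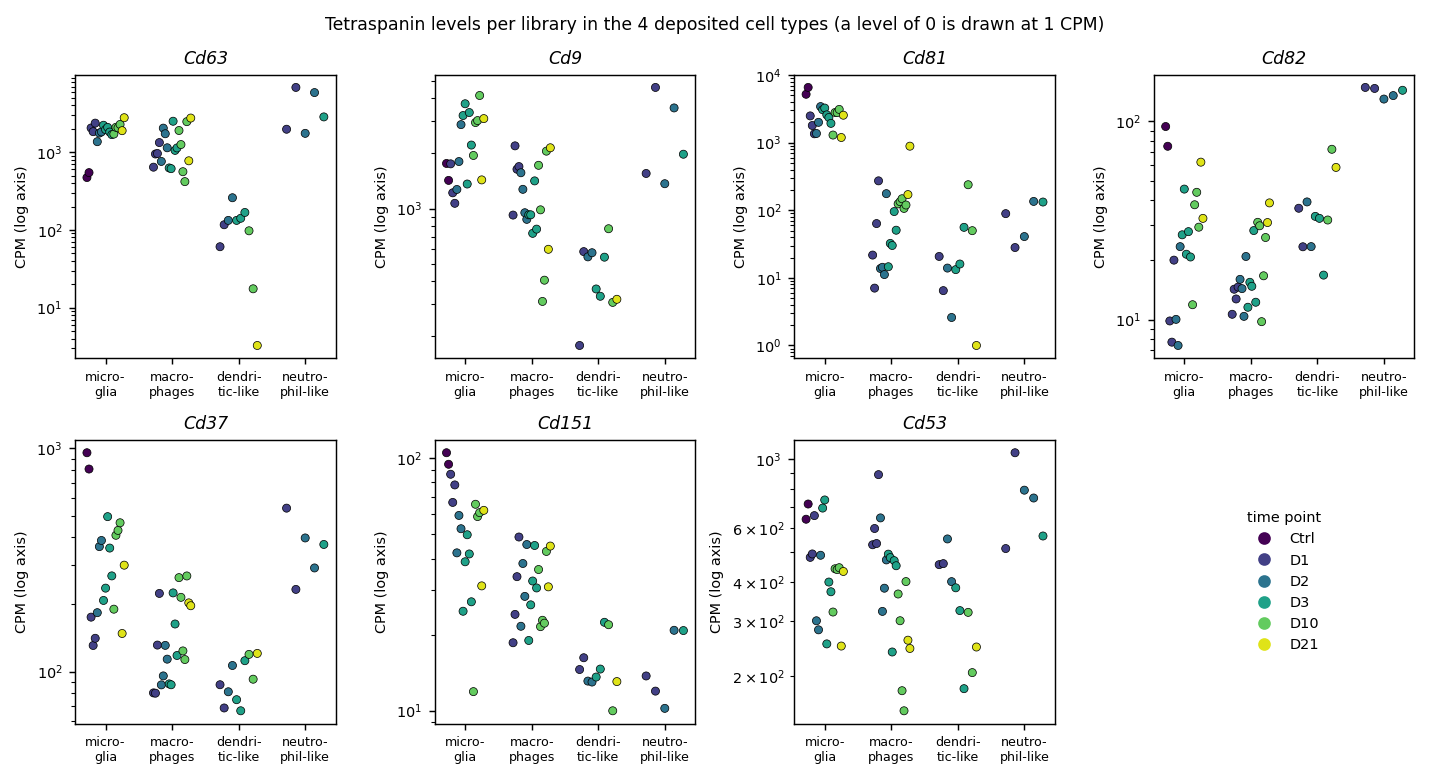
CPM (log axis) of each tetraspanin in each sum of at least 20 cells of a type in 1 library, by cell type, with colour for the time point; points of a type are spread sideways by time and the 1 value of 0 is drawn at 1 CPM. Cd81 is at or above 1192 CPM in all microglia sums and at most 887 in all others, Cd82 is 130 to 149 CPM in neutrophil-like cells, and Cd63 is at most 260 CPM in dendritic-like cells.

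In microglia the tetraspanins did not move together after injury. Cd63 rose at each of 5 time points, of which D21 is 1 library, and Cd9 rose at D3 and D10. Cd9 was also higher in the 1 D21 library of the fit, while an infiltrating D21 sum outside it lay between the Ctrl libraries. Cd37 and Cd82 fell at D1, D2 and D3, Cd81 fell at D1 and D2, Cd151 fell at D3, and Cd53 passed no test. Time points were compared over 17 microglia sums of mixed and resident libraries. edgeR's quasi-likelihood test with Benjamini-Hochberg adjustment over 10801 genes called 4 of 7 members on day D1, 4 on D2, 5 on D3, and 2 each on D10 and D21. Over all genes the same test called 46.6%, 29.7%, 37.6%, 10.3% and 6.98%, so the count of members was near or a little above the background at D1 and above it later; nothing particular to the tetraspanins is read from it. D21 had 1 microglia library, assumed in the fit to vary like the others, and Ctrl had 2. With mixed libraries alone Ctrl is 1 library, so a call lost under that setting, here and below, comes from an arm of 1 sample. The fitted changes are on the TMM scale, on which the median gene moved by at most 0.08; on the library-size scale of the printed CPM the median gene moved by -0.73, -0.40, -0.62, -0.60 and -0.94 in time order. On that scale D2 had 5 called members, D10 had 4 and D3 and D21 the same numbers, with Cd9 called at no time point. The D1 libraries came from 1 sequencing pool and the Ctrl libraries from 2 others, and a pool term could not be fitted for D1 or D21, so time and pool cannot be told apart there.

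Beside every microglia result stands a change in the markers that define the cells. The 9 microglia markers summed to 26610 and 30010 CPM in Ctrl, 4787 to 9100 at D1, 7074 to 13230 at D2, 11000 to 14620 at D3, 14370 to 16050 at D10 and 11590 at D21. The 9 macrophage markers summed to 334 and 398 CPM in Ctrl microglia, 1301 to 1972 at D1, 1381 to 1547 at D2, 2723 to 4709 at D3, 3235 to 4454 at D10 and 6684 at D21. The 8 monocyte markers summed to at most 51.8 CPM in any of the 17 sums. At D2, 5 of 5 neuron markers tested were higher than in Ctrl (median +2.75), with sums of 44.4 to 88.8 CPM against 16.2 and 18.4 in Ctrl. The part of these shifts in the changes of the tetraspanins was not tested.

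Cd63, the late endosomal and exosomal member, stood at 472 and 546 CPM in the Ctrl libraries. It stood at 2051, 1839 and 2367 CPM in the D1 libraries, 1825, 1366 and 1762 at D2, 1817, 1685, 2222, 1957 and 2087 at D3, 2277, 2091 and 2061 at D10 and 2780 at D21. Each of the 15 injured libraries was above both Ctrl libraries, and the ranges did not overlap. The fitted log2 change against Ctrl was +2.70 ± 0.25 (SE) at D1 (adjusted p = 2.16e-06), +2.01 ± 0.24 at D2 (adjusted p = 2.9e-05), +2.49 ± 0.23 at D3 (adjusted p = 3.23e-06), +2.64 ± 0.24 at D10 (adjusted p = 2.97e-06) and +3.38 ± 0.29 at D21 (adjusted p = 1.44e-06). Every alternative run kept these calls, with changes from +1.67 to +3.46. Neither D3 against D1 nor D10 against D3 called Cd63.

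Cd9 read 1763 and 1425 CPM in Ctrl, 1755, 1219 and 1068 at D1 and 2874, 1271 and 1806 at D2, and those ranges overlapped. It read 3345, 2222, 3222, 3736 and 1361 CPM at D3, 4145, 2949 and 3024 at D10 and 3100 at D21. The 3 D10 libraries and the 1 D21 library of the fit were above both Ctrl libraries, and at D3 only D3_mixed 3 was below them. Outside the fit, D10_infiltrating 2 (36 microglia) had 1950 CPM, above both Ctrl libraries. D21_infiltrating 1 (41 microglia), also outside it, had 1434 CPM, between the Ctrl libraries. Cd9 rose by 1.41 ± 0.39 on the log2 scale at D3 (adjusted p = 0.01), 1.68 ± 0.41 at D10 (adjusted p = 0.0131) and 1.78 ± 0.52 at D21 (adjusted p = 0.0444). These calls were lost on the library-size scale, with changes of +0.83 at D3 (adjusted p = 0.0794), +1.09 at D10 (adjusted p = 0.0543) and +0.91 at D21 (adjusted p = 0.184), and without either Ctrl library (adjusted p = 0.0586 and 0.12 at D3, 0.117 and 0.162 at D10, 0.223 and 0.145 at D21, for Ctrl_mixed 1 and Ctrl_resident 1 in that order). With a pool term Cd9 was called at D2 (+1.33, adjusted p = 0.0177). The calls were also lost with mixed libraries alone, at D3 with a pool term, at D21 in 7 of 11 other settings, at D10 without D10_resident 1 (adjusted p = 0.0932), and at D21 without any 1 of D10_mixed 1, D10_mixed 2, D1_mixed 2, D2_mixed 2 and D3_resident 2 (adjusted p = 0.0537 to 0.0612).

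Cd81 stood at 5196 and 6559 CPM in the Ctrl libraries. Its levels were 2488, 1794 and 1353 CPM at D1, 3417, 1367 and 1999 at D2, 2355, 1929, 3071, 3250 and 2578 at D3, 3103, 2795 and 2785 at D10 and 2547 at D21. All 15 injured libraries were below both Ctrl libraries. Cd81 fell by 1.08 ± 0.33 on the log2 scale at D1 (adjusted p = 0.0136) and by 1.10 ± 0.32 at D2 (adjusted p = 0.0166), and no later time point was called. At D3 Cd81 was called in 5 other settings, namely library-size scaling, median-of-ratios scaling, DESeq2, no expression filter and equal depth (changes of -1.24 to -0.75, adjusted p = 0.00226 to 0.0475), and at D10 on the library-size scale. The D1 call was lost without Ctrl_mixed 1 (adjusted p = 0.0501), Ctrl_resident 1 (adjusted p = 0.107) or D1_mixed 3 (adjusted p = 0.0606) and with mixed libraries alone. The D2 call was lost without Ctrl_mixed 1 (adjusted p = 0.106), Ctrl_resident 1 (adjusted p = 0.0971) or D2_mixed 1 (adjusted p = 0.148), with a pool term, where the change was -0.55, and without the cells of cluster 2 or of clusters 6, 7 and 10.

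Cd82 stood at 94.3 and 75.0 CPM in the Ctrl libraries. It stood at 9.84, 7.69 and 19.96 CPM at D1, 23.3, 10.0 and 7.40 at D2 (the last from 1 UMI in D2_mixed 2, which had 23 microglia), 27.8, 20.7, 26.8, 45.6 and 21.4 at D3, 29.3, 38.0 and 43.9 at D10 and 32.4 at D21. The 15 injured libraries were all below both Ctrl libraries, and the 3 D1 libraries were below all D3, D10 and D21 libraries. The change was -2.19 ± 0.45 at D1 (adjusted p = 0.000817), -2.04 ± 0.45 at D2 (adjusted p = 0.00315) and -1.17 ± 0.40 at D3 (adjusted p = 0.0296). D10 and D21 were not called, but on the library-size scale D10 was (-1.28, adjusted p = 0.0315). These rest on few molecules, 667 Cd82 UMIs in Ctrl, 158 at D1, 203 at D2 and 131 at D3. With mixed libraries alone the calls at D1 and D3 were lost, with a pool term those at D2 and D3. Without Ctrl_mixed 1 the D2 and D3 calls were lost (adjusted p = 0.0765 and 0.291), as they were without D2_mixed 1 at D2 (adjusted p = 0.0516) and without D10_resident 1 or D3_resident 2 at D3 (adjusted p = 0.0502 and 0.0514). At equal depth and without clusters 6, 7 and 10 the D3 call was lost as well.

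Cd37, a leukocyte tetraspanin of antigen-presenting cells, stood at 955 and 808 CPM in the Ctrl libraries. Its levels were 175, 131 and 141 CPM at D1, 386, 184 and 363 at D2, 357, 268, 208, 236 and 494 at D3, 464, 408 and 429 at D10 and 300 at D21. All 15 injured libraries were below both Ctrl libraries, and the 3 D1 libraries were below the other 12. Cd37 fell by 1.88 ± 0.34 on the log2 scale at D1 (adjusted p = 0.000361), by 1.20 ± 0.34 at D2 (adjusted p = 0.0131) and by 0.94 ± 0.30 at D3 (adjusted p = 0.0211). From D1 to D3 it rose by 0.94 ± 0.28 (adjusted p = 0.0249). On the library-size scale Cd37 was also called at D10 (-1.04, adjusted p = 0.0372) and D21 (-1.53, adjusted p = 0.0432). The D1 call held in every alternative run. The D2 call was lost without Ctrl_mixed 1 (adjusted p = 0.139) or D2_mixed 1 (adjusted p = 0.151) and with a pool term. The D3 call was lost without Ctrl_mixed 1 (adjusted p = 0.19) or Ctrl_resident 1 (adjusted p = 0.064), with mixed libraries alone and without clusters 6, 7 and 10, and with a pool term the change was +0.45 (adjusted p = 0.741). The rise from D1 to D3 was lost without D1_mixed 2 (adjusted p = 0.112), D1_mixed 3 (adjusted p = 0.073) or D3_mixed 3 (adjusted p = 0.0637), and with mixed libraries alone.

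Cd151 stood at 105 and 94.4 CPM in the Ctrl libraries, at 86.2, 66.7 and 78.2 at D1, at 52.5, 42.1 and 59.2 at D2, at 41.7, 27.0, 24.7, 38.8 and 49.7 at D3, at 60.8, 65.6 and 58.6 at D10 and at 62.0 at D21. The 5 D3 libraries were below every Ctrl, D1 and D10 library and overlapped D2, where D2_mixed 1 was below D3_mixed 3. At D2 Cd151 was called on the library-size scale (-1.02, adjusted p = 0.0137) and by DESeq2 (-0.75, adjusted p = 0.0116). Cd151 fell by 0.87 ± 0.25 on the log2 scale at D3 against Ctrl (adjusted p = 0.013) and by 1.22 ± 0.22 against D1 (adjusted p = 0.00136), and was 0.76 ± 0.22 higher at D10 than at D3 (adjusted p = 0.048). For D3 against D1, edgeR called 18.8% of all genes and 2 members, Cd151 and Cd37, and for D10 against D3 6.88% and 1 member. The Ctrl comparison was lost without Ctrl_mixed 1 (adjusted p = 0.117) or Ctrl_resident 1 (adjusted p = 0.0676), with mixed libraries alone and with a pool term, where the change was -0.14. D3 against D1 lost its call at equal depth alone (adjusted p = 0.0906). In that comparison Cd9 was called in 8 other settings (+0.91 to +1.07) and Cd82 in 5 (+1.06 to +1.19). Cd9 also gained a call without D3_mixed 3 (+1.08), D21_mixed 1 (+0.96) or D2_resident 1 (+0.85), and Cd82 without D1_mixed 3 (+1.54) or D21_mixed 1 (+1.10). D10 against D3 lost its call in 11 of 14 other settings and without 16 of 17 single libraries, all but D3_mixed 3 (adjusted p from 0.014 to 0.199).

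Cd53 was called in no microglia comparison of the edgeR test. It stood at 639 and 716 CPM in the Ctrl libraries, 482, 494 and 657 at D1, 489, 301 and 281 at D2, 401, 373, 695, 738 and 253 at D3, 446, 443 and 440 at D10 and 434 at D21. The D3 libraries spread from below all others to above both Ctrl libraries, with D3_mixed 3 lowest.

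**Figure D2:**
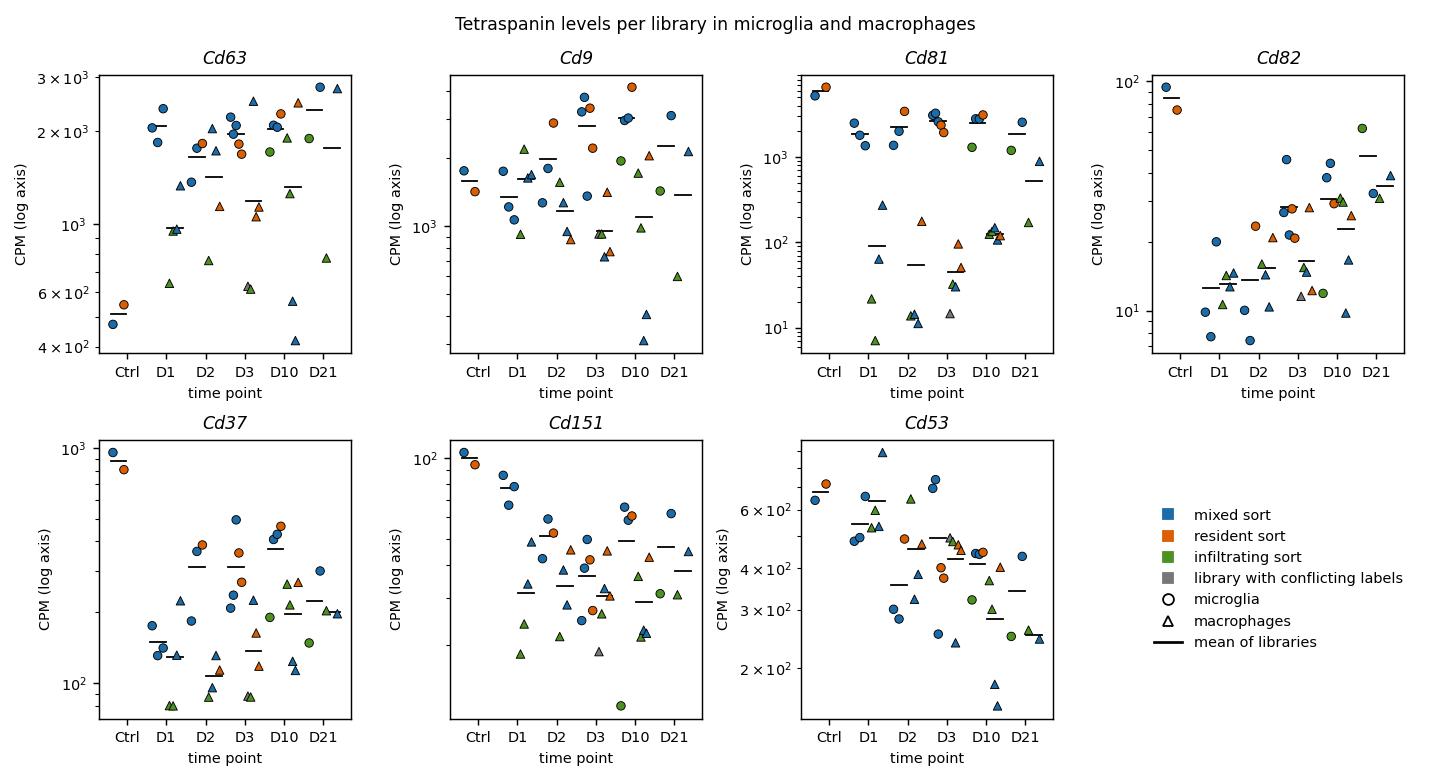
CPM (log axis) of each tetraspanin per library by time point, with circles for microglia, triangles for macrophages, colour for the sort and a short bar for the mean of the libraries drawn; it shows every sum of at least 20 cells, also those of a sort that did not enter the fit for that type. In microglia the 2 Ctrl libraries are lowest for Cd63 and highest for Cd81, Cd82, Cd37 and Cd151.

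**Figure D3:**
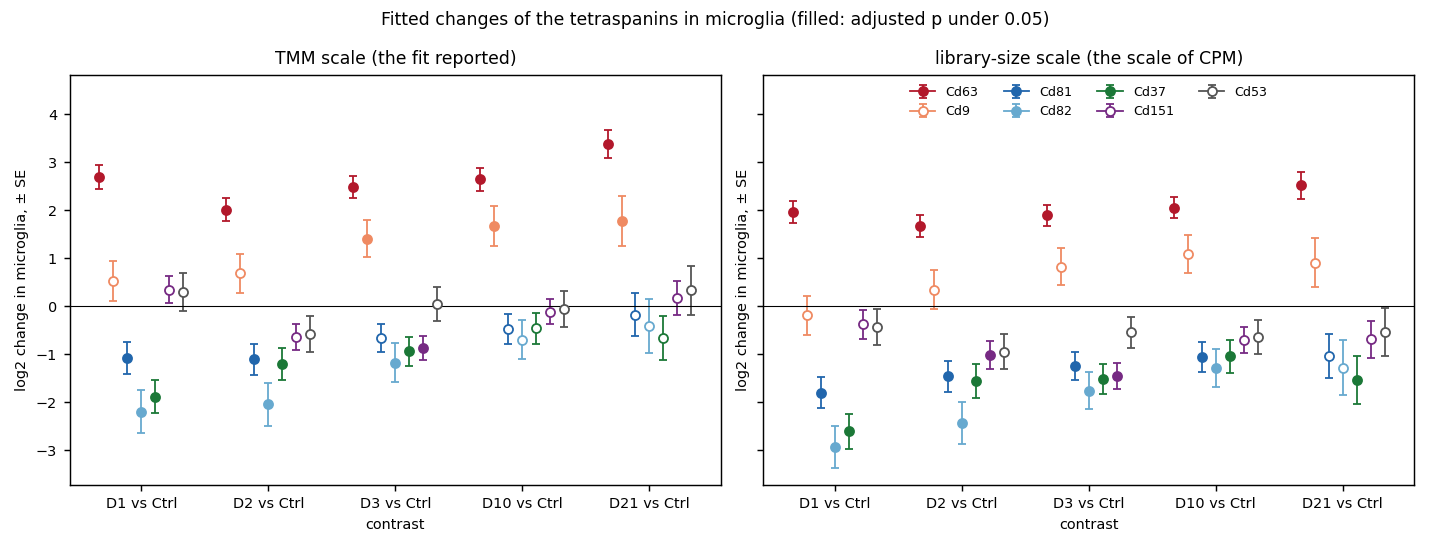
Log2 change of each tetraspanin in microglia against Ctrl (vertical axis, bars are the SE of the fit) at each time point, on the TMM scale at left and on the library-size scale at right; filled points passed an adjusted p of 0.05 in edgeR's quasi-likelihood test. Cd63 is filled at all 5 time points on both scales, and Cd9 is filled on the TMM scale only.

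Macrophages gave few calls: Cd53 fell between D1 and D10, and no other member passed a test between time points. There were 15 macrophage sums of infiltrating and mixed libraries and no macrophages in Ctrl, so D1 was the reference. D3 against D1 called 0 of 8577 genes and no member by edgeR (percent called 0, with 612 genes at an unadjusted p under 0.05), and DESeq2 called 5 genes and no member. D10 against D1 called 14.4% of genes and 1 member, D21 against D1 3.56% and none, and D10 against D3 0.676% and none.

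Cd53 stood at 529, 597, 534 and 890 CPM in the macrophages of D1_infiltrating 1, D1_infiltrating 2, D1_mixed 1 and D1_mixed 3. It stood at 646, 323 and 383 CPM at D2, 481 and 239 at D3, 367, 301, 179 and 154 at D10 and 260 and 245 at D21. All 4 D10 sums were below all 4 D1 sums. The log2 change was -1.32 ± 0.34 (adjusted p = 0.0205, edgeR). It was lost without D10_mixed 1 (adjusted p = 0.0664), D10_mixed 2 (adjusted p = 0.062) or D1_infiltrating 2 (adjusted p = 0.0692). In the same contrast 5 of 9 macrophage markers fell (median -2.04), 4 of 8 microglia markers tested rose (median +2.04) and 0 of 8 monocyte markers were called. The 9 macrophage markers summed to 19970 to 32590 CPM at D1 and 15590 to 42320 at D10. In the same sums the 8 monocyte markers ran from 2581 to 6149 CPM at D1 and from 760 to 6025 at D10, and the 9 microglia markers from 291 to 1396 and from 998 to 3345; the part of these was not tested.

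Cd81 in macrophages stood at 21.7, 7.05, 63.6 and 272 CPM at D1, 13.8, 14.3 and 11.2 at D2, 32.3 and 30.1 at D3, 124, 134, 148 and 106 at D10 and 171 and 887 at D21. Among these infiltrating and mixed sums D10 and D21 were above D2 and D3 but overlapped D1 through D1_mixed 3, and no contrast was called. The resident library D2_resident 1, outside the fit, had 176 CPM in its macrophages, above the 4 D10 sums. Without D1_mixed 3 the edgeR test called Cd81 at D10 (+2.60) and D21 (+4.57) against D1, and without D1_infiltrating 1 it called Cd9 at D10 (-1.53). DESeq2 on all libraries called Cd81 at D21 (+2.97, adjusted p = 0.0256). Cd63 stood at 642, 949, 962 and 1331 CPM at D1, 614 and 2503 at D3 and 1903, 1255, 561 and 418 at D10, with the 2 infiltrating D10 sums above the 2 mixed ones. Cd9 had the same split at D10, at 1722 and 984 CPM in infiltrating and 311 and 406 in mixed libraries, after 921, 2200, 1640 and 1696 at D1. With mixed libraries alone Cd9 (-2.06) and Cd63 (-1.09) were called at D10 against D1 beside Cd53, and Cd63 (+1.65) at D3 against D1, where D3_mixed 3, the library with the outlying Cd63 value of 2503 CPM, is the only D3 library. Cd82 stood at 10.6 to 14.6 CPM at D1, 9.76 to 31.0 at D10 and 30.9 and 38.8 at D21, and the D1 and D21 ranges did not overlap. Cd82 was called at D21 by DESeq2 (+1.57, adjusted p = 0.0365) and, without clusters 6, 7 and 10, at D21 (+1.96, adjusted p = 0.0102) and D10 (+1.15, adjusted p = 0.028). Cd37 stood at 80.0 to 224 and 113 to 263 CPM at D1 and D10, and Cd151 at 18.6 to 48.7 and 21.5 to 36.2, and these ranges overlapped.

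The change of Cd9 from D1 to D10 differed between macrophages and microglia. Its mean level went from 1347 to 3373 CPM in microglia (3 libraries each) and from 1614 to 856 CPM in macrophages (4 each). Pooled over those macrophage libraries, Cd9 was 1581 CPM at D1 and 1316 at D10. The change in macrophages alone was not called (adjusted p = 0.154, edgeR). D10_resident 1, outside the fit, had 2058 CPM of Cd9 in 134 macrophages, above the 4 D10 sums of the fit. The difference of the log2 changes, macrophages minus microglia, was -2.08 ± 0.68 (adjusted p = 0.0427, edgeR, 12.6% of 11486 genes called), and Cd9 was the only member called. Sums of both types from 1 library share their mice. With the library as a correlated block in limma-voom the difference was -2.38 and kept its call. It was lost with a sort term, at a minimum of 50 cells, at equal depth, without cluster 2 and without clusters 6, 7 and 10 (adjusted p = 0.0507 to 0.0793). It was also lost without any 1 of D10_mixed 1, D10_mixed 2, D10_resident 1, D1_infiltrating 2, D1_mixed 1, D1_mixed 2, D1_mixed 3 and D2_mixed 2 (adjusted p = 0.0567 to 0.163).

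The reporter sort separates cells by RFP and YFP without use of RNA, and it set Cd81 apart. Cell origin is inferred from the reporter, and the timing of Cre induction is not given. Over all cells of a library Cd81 stood at 6559, 2826, 1280, 1168 and 2138 CPM in the resident libraries of Ctrl, D2, D3 (2) and D10. The 7 infiltrating libraries had 8.57 (lowest), 28.7 (median) and 241 CPM (highest) of Cd81, and the ranges did not overlap. Both sorts were present at D2, D3 and D10, which carry the comparison. Cd81 was lower in the infiltrating sort by a log2 difference of -5.42 ± 0.76 (adjusted p = 0.00387, edgeR), in a test that called 11.2% of 11548 genes and 3 of 7 members. It held in every alternative run, between -6.24 and -4.42. Microglia made up 67.9% or more of the resident libraries and 0.253 to 26.5% of the infiltrating ones, so the contrast sets mostly 1 cell type against others.

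Cd37 stood at 808, 337, 260, 202 and 401 CPM in those resident libraries and at 78.3 (lowest), 114 (median) and 248 CPM (highest) in the infiltrating ones, and the ranges overlapped. The log2 difference was -1.35 ± 0.25 (adjusted p = 0.0127, edgeR). Cd151 stood at 94.4, 50.5, 40.9, 27.5 and 54.9 CPM against 16.5, 20.8 and 34.4 CPM, with overlap, and the difference was -1.01 ± 0.24 (adjusted p = 0.0287). The Cd37 call was lost with a pool term (adjusted p = 0.128) and without D2_infiltrating 1, D2_resident 1 or D3_infiltrating 1 (adjusted p = 0.102, 0.103 and 0.0696). The Cd151 call was lost with a pool term (adjusted p = 0.149), at equal depth, and without any 1 of those 3 libraries, D10_resident 1, D3_resident 1 or D3_resident 2 (adjusted p = 0.0576 to 0.207). Cd9 stood at 1425 to 3470 CPM in resident and 618 to 2248 in infiltrating libraries and Cd63 at 546 to 2340 and 395 to 1697, and neither was called; on the library-size scale and in DESeq2 both were, at -1.36 and -1.30 on the former. Leaving out D1_infiltrating 1 or D1_infiltrating 2 gave the same 5 calls, and adding the library of conflicting labels as infiltrating also called Cd9 (-1.31). Cd53 stood at 398 to 716 and 256 to 644 CPM and Cd82 at 18.1 to 75.0 and 19.2 to 44.1, with overlap.

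**Figure D4:**
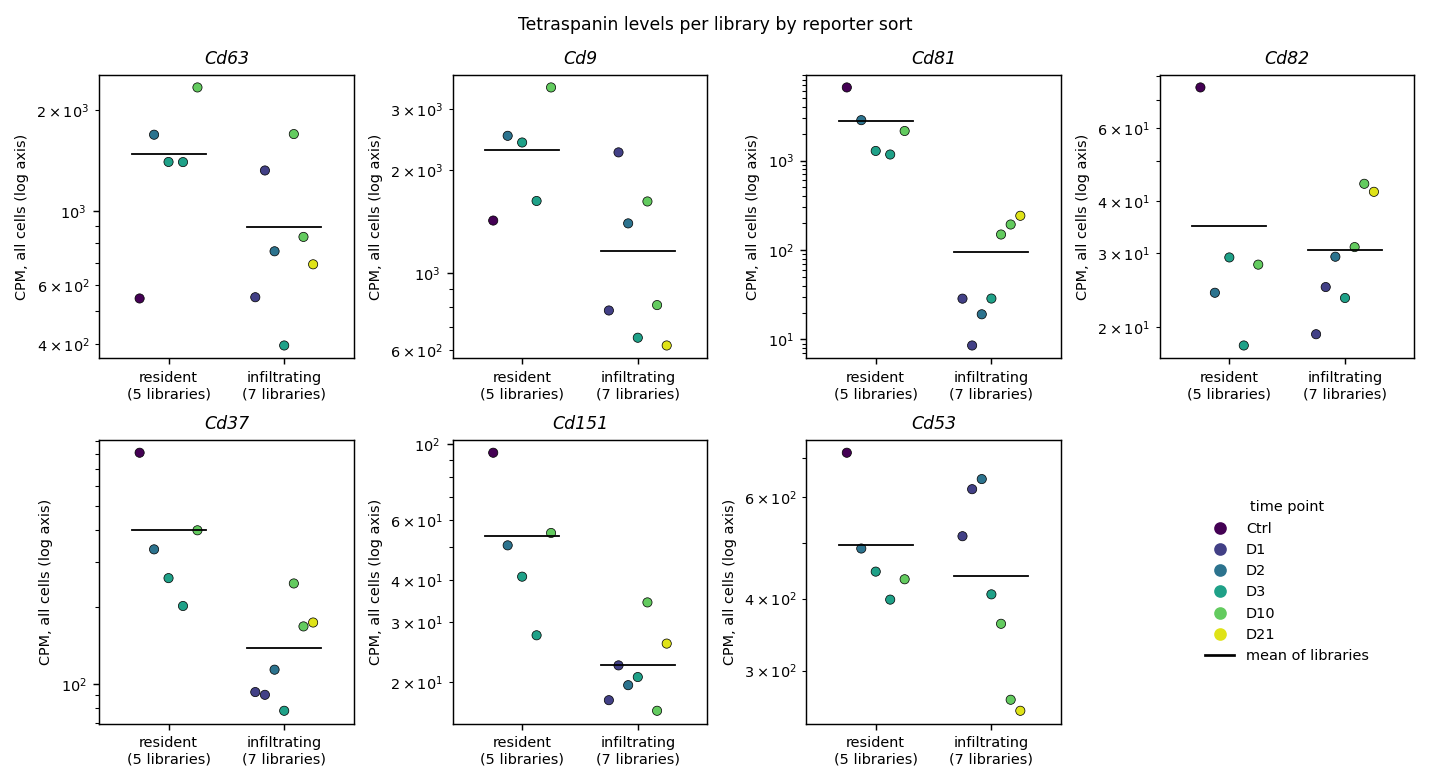
CPM (log axis) of each tetraspanin over all cells of a library, by reporter sort, 1 point for each of 5 resident and 7 infiltrating libraries. The sorts do not overlap for Cd81, whose lowest resident library is at 1168 CPM and highest infiltrating library at 241 CPM.

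The 7 genes did not all have the same leading deposited cluster, and some shared one. The clusters were made from the same cells, so the levels are a description, as the mean over libraries with at least 20 cells of the cluster. Cluster 1, found in the 2 Ctrl libraries alone, had the highest mean of Cd81 (5877 ± 964 CPM) and Cd37 (882 ± 105) and the second highest of Cd82 (84.7 ± 13.7), with Cd63 at 509 ± 52.7. Cluster 3, present in 15 libraries from D1 to D21, had 2586 ± 427 CPM of Cd63 and 2891 ± 1229 of Cd9. Cd9 was highest in cluster 7 (3179 CPM, 1 library) and cluster 4 (3056 ± 857, 6 libraries), whose values overlapped. Cluster 2, a microglia cluster of 14 libraries, had 796 ± 291 CPM of Cd81, the lowest of clusters 1 to 7, and 10.5 ± 9.04 of Cd82. Cluster 16, which holds the neutrophil-like cells, had the highest mean of Cd63 (3848 ± 2332 CPM, 5 libraries), Cd82 (141 ± 8.04) and Cd53 (734 ± 212). The libraries of the leading cluster did not overlap those of the next for Cd81 and Cd82, and overlapped for Cd37, Cd63, Cd53, Cd9 and Cd151. For Cd81 the next was cluster 7, which is 1 library. How many of all genes have such a gap was not counted, so nothing particular to these genes is read from it.

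Cd63 ranged widely among the clusters outside microglia. It stood at 91.4 ± 35.5 CPM in cluster 12 (6 libraries), where Cd53 was 643 ± 101, against 1244 CPM in cluster 11 and 1792 in cluster 9. The Cd63 means of cluster 12 and of cluster 13 (32.2 CPM) were below the 113 CPM of cluster 15, which holds the dendritic-like cells. Cluster 13 (4 libraries) held 43 Cd63 UMIs in all and a Cd82 level of 73.9 ± 12.3 CPM, next after clusters 16 and 1. Cluster 14 (2 libraries) had 469 ± 2.89 CPM of Cd37 and the highest mean of Cd151, 101 ± 143, which came from 27 UMIs and differed between its 2 libraries by more than its mean.

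**Figure D5:**
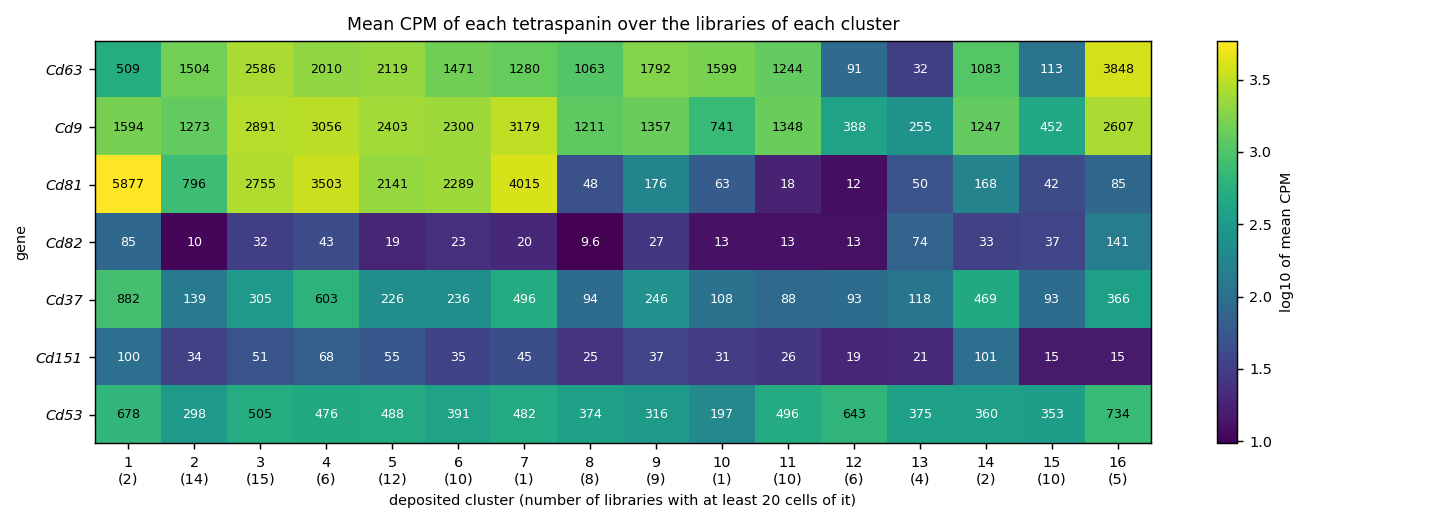
Mean CPM (printed in each cell, colour on a log10 scale) of each tetraspanin over the libraries with at least 20 cells of each deposited cluster; the number of libraries stands below the cluster number. Cluster 1 has the highest mean of Cd81 and Cd37 and cluster 16 of Cd63, Cd82 and Cd53.

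The mean share of microglia with at least 1 UMI was higher at D1 than in Ctrl for Cd63 and lower for Cd81, Cd37, Cd82, Cd53, Cd151 and Cd9. These shares take in every library with at least 20 cells of the type, so D10 and D21 also include infiltrating libraries (4 and 2 libraries in all). After each cell was thinned to 1000 UMIs, leaving out 30 shallower microglia and 57 macrophages, Cd63 was seen in a mean of 32.8% of Ctrl microglia and in 78.1% at D1, 72.9% at D3 and 84.4% at D21 (64.1%, 93.2%, 84.6% and 95.3% before thinning). Cd81 was seen in 99.1% of Ctrl and 69.5% of D1 microglia (99.9% and 87.2% before). At D3 the mean share was 78.9% (88.5% before), and at D10 and D21 the sorts differed: D10_infiltrating 2 (36 microglia) had 32.3% and D21_infiltrating 1 (41 microglia) 45.8%, while D21_mixed 1 had 83.9% and the highest D10 library 85.9%. Cd37 went from 57.7% in Ctrl to 12.7% at D1 and 26.7% at D10 (92.9%, 34.9% and 52.9% before). Cd82 was seen in 8.32% of Ctrl and 1.13% of D1 microglia (26.8% and 4.22% before), at a level where most cells held no UMI of it. From Ctrl to D1 Cd53 went from 49.0 to 38.1% (88.6 and 71.0% before) and Cd151 from 9.40 to 7.03% (30.9 and 23.3% before). Cd9 went from 71.8 to 62.0% (94.6 and 84.7% before), and its thinned ranges overlapped. In macrophages Cd81 was seen in 5.22% (D3) to 44.7% (D21) of thinned cells and in neutrophil-like cells in 5.22% (D1) to 11.2% (D3), and the mean dendritic-like share was at most 9.63% (D10). In macrophages single libraries ran from 0.66 to 32.9% at D1, from 1.31 to 18.0% at D2 and from 1.44 to 10.5% at D3. They ran from 7.88 to 28.1% at D10 and were at 27.1 and 62.3% at D21. The one D3 neutrophil-like value is from the library of conflicting labels.

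Counts of other genes of the tetraspanin web stand in microglia beside shares of all genes called of 46.6% at D1, 37.6% at D3 and 10.3% at D10, and at D1 the partners and the other tetraspanins were close to that share. The lists were chosen with earlier results in view and are given as counts with the median change, and nothing particular to them is read from these. Of 12 other tetraspanins tested, 1 rose and 4 fell at D1 (median -0.34 against -0.01 over all genes), and 3 fell at D10. Tspan13 fell by 2.79 ± 0.43 on the log2 scale at D1 and Tspan18 by 3.52 ± 0.61, and Upk1b, a uroplakin, fell by 4.52 ± 0.84. Of 5 TspanC8 tetraspanins, which guide the protease ADAM10, none passed at D1 and 1 rose and 2 fell at D3, Tspan17 (+1.93 ± 0.49), Tspan14 (-1.27 ± 0.26) and Tspan33 (-2.001 ± 0.42). Of 17 partners, 5 rose and 3 fell at D1 (median +0.05), and 4 rose and 0 fell at D10 (median +0.81). The scavenger receptor Cd36 was 5.58 ± 0.73 higher at D1, the hyaluronan receptor Cd44 3.75 ± 0.55, and Timp1, the protease inhibitor known to bind CD63, 6.56 ± 1.43. At D10 Clec7a, the beta-glucan receptor Dectin-1 that associates with CD37, was 3.91 ± 0.66 higher.

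Of 10 genes of exosome formation, 6 rose and 1 fell in microglia at D1 (median +0.87, 46.6% of all genes called), and 3 rose and 0 fell at D3 (median +0.43), where the other 7 did not pass and 37.6% of all genes were called. Chmp4b, an ESCRT-III subunit, rose by 1.23 ± 0.28 at D1 and Sdcbp, the syntenin that links CD63 to exosome formation, by 1.49 ± 0.41. Of 12 late endosomal and lysosomal membrane genes, 3 rose and 3 fell at D1 and 4 rose and 1 fell at D3, near those shares, with Cd68 at +1.05 ± 0.26 and +1.504 ± 0.24. In the sort comparison, where 11.2% of all genes were called, 4 of 12 other tetraspanins were lower in the infiltrating sort and 0 higher, led by Tspan7 (-7.11 ± 0.93), Tspan4 (-2.12 ± 0.39) and Tspan3 (-0.88 ± 0.20). In macrophages at D10 against D1, where 14.4% of all genes were called, 0 of 6 other tetraspanins were called and 1 of 15 partners rose and 4 fell, among them Timp1 (-5.62 ± 0.91) and Cd36 (-2.15 ± 0.43).

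The genes most like each member were found by Pearson correlation of log2(CPM + 5), as a description without a test, since sums share libraries, depth and cell types. Over 54 sums of all 4 types and 5550 genes, Cd81 was closest to Serpine2 (0.952) and Ldhb (0.943), Cd63 to the cathepsin genes Ctsd (0.871) and Ctsb (0.813) and then to Cd9 (0.796), and Cd9 to Ccl3 (0.809), Fcgr3 (0.803) and Cd63. Cd37 was closest to Ptgs1 (0.831), Cd82 to Pbxip1 (0.854), Cd151 to Paqr7 (0.855) and Cd53 to Atp6ap2 (0.807). Cd63 and Cd9 were the only members to stand among the 3 nearest genes of another member. Over the 17 microglia sums and 5345 genes the nearest genes were others: Lgals3 (0.939), Ccl3 (0.929) and Rab7b (0.925) for Cd63, Gdpd3 (0.87) and Axl (0.855) for Cd9, Irf8 (0.981) for Cd82, Rbm5 (0.977) for Cd37, Tmbim6 (0.959) for Cd81, Bicd2 (0.903) for Cd151 and Dram2 (0.904) for Cd53.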

How the data were processed

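The authors deposited, per library, whole-number counts of UMIs for each gene and cell, and a cell table with UMI counts, genes detected, the percent of mitochondrial UMIs, and codes for cell type, cluster and sequencing pool (other columns of the deposited cell table carry no unit). Per the submitters' processing notes, Cell Ranger 3.1.0 and builds GRCm38 and mm10 were used; the cell filters, doublet treatment and annotation are not given in the sources used here. The lowest cell had 713 UMIs and the highest mitochondrial percent was 22.65. No doublet caller was run, and the whole-series matrices were not used here.

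Counts were summed per library and cell type (at least 20 cells) and tested with edgeR 4.0.16 (TMM scaling, filterByExpr, quasi-likelihood test, Benjamini-Hochberg adjustment at 0.05, R 4.3.3) with time and sex as terms. The sort comparison used all cells per library with sort added, and the cell-type comparison an interaction. The fits were checked on simulated data. Libraries are pools of mice and are the replicates. DESeq2 1.42.0 and limma 3.58.1 served alternatives. Levels, thinning and motifs used Python 3.11.15, numpy 2.4.6 and pandas 2.3.3. All 7 members are named throughout; of other lists at most the 3 called genes with the smallest p are named, and for likeness up to 3 nearest genes, of which 1 is not reported here. The members and lists were chosen with earlier results of these data known.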

Additional observations from a re-analysis of the deposited data

Results flagged for a closer look

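Of 42 groups of 4 or more libraries of 1 gene, cell type and time point, 8 had 1 library far from the rest by Dixon's test, which flags about 1 in 20 groups by chance; these groups take in libraries of every sort. In D3 macrophages, D3_mixed 3 had Cd63 at 2503 CPM against 614 to 1135 in the others, and Cd53 at 239 CPM against 453 to 493. D3_resident 1 had Cd9 at 1416 CPM against 732 to 924, and Cd82 at 28.2 CPM against 11.5 to 15.4, in 40 macrophages. In D2 macrophages Cd81 was 176 CPM in D2_resident 1 against 11.2 to 14.3.

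In D10 microglia, D10_infiltrating 2 had Cd151 at 11.9 CPM against 58.6 to 65.6, and Cd53 at 321 CPM against 440 to 446. That Cd151 value came from 1 UMI in 36 microglia. In D3 microglia, Cd82 was 45.6 CPM in D3_mixed 2 against 20.7 to 27.8. The change of Cd9 from D1 to D10 differed between cell types, with macrophages minus microglia at -2.08 in edgeR's interaction test, described above with the settings that end the call.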

How the results depend on the processing

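The count of members called moved by more than 1.5 times the reported edgeR count under these settings; smaller moves are given for microglia at D2 and D3 and for D3 against D1. In microglia at D1 it went from 4 to 2 with mixed libraries alone, at D2 from 4 to 2 with a pool term (5 by library-size scaling or DESeq2, 3 without cluster 2 or clusters 6, 7 and 10), and at D3 from 5 to 1 with mixed libraries alone or a pool term and to 3 without clusters 6, 7 and 10, with 6 by median-of-ratios scaling, DESeq2 or no expression filter. At D10 it went from 2 to 4 by library-size scaling and 1 with mixed libraries alone, and at D21 from 2 to 1 in 6 settings. For D3 against D1 it went from 2 to 4 in 5 settings, 3 by median-of-ratios scaling or without a sex term and 1 in 3, and for D10 against D3 from 1 to 0 in 11. In macrophages mixed libraries alone gave 1 at D3 and 3 at D10 against D1 and 3 at D10 against D3, with D3_mixed 3 as the only D3 library, DESeq2 gave 2 at D21, and leaving out clusters 6, 7 and 10 gave 2 at D10 and 1 at D21. The sort count went from 3 to 5 by library-size scaling or DESeq2 and 1 with a pool term. The interaction count went from 1 to 2 with mixed libraries alone and 0 in 5 settings. Cd37 at D3 reversed to +0.45 with a pool term. The causes were not tested. Leaving out single libraries gave 3 to 4 (D1), 1 to 4 (D2), 1 to 5 (D3), 1 to 2 (D10), 1 to 2 (D21), 1 to 4 (D3 against D1) and 0 to 1 (D10 against D3) in microglia, 0 to 0, 0 to 2, 0 to 1 and 0 to 0 in macrophages, 1 to 5 by sort and 0 to 1 for the interaction. All 7 members kept a higher mean level in microglia than in macrophages with pooled counts.

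Same-numbered mixed libraries of D1 and D3 correlated at -0.01, 0.12 and 0.09 over 10193 genes, so the numbers were not taken to pair the samples. With the replicate block the D3 against D1 count was 1, with Cd37 at +0.84 (adjusted p = 0.0823), and without it in the same libraries also 1. Pool and time cannot be told apart for D1 and D21 in microglia. Cd82 and Cd151 rest on few UMIs, which limits their precision.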
